A study of Homo sapiens with 4 samples.

Results

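*MALAT1*, *NEAT1* and long noncoding RNAs that host small nucleolar RNAs (snoRNAs) were examined in OVCA420 cells, an established ovarian cancer cell line, during treatment with TGF-β1. The rule named 8 genes, *MALAT1*, *NEAT1*, *GAS5*, *SNHG25*, *SNHG1*, *SNHG6*, *SNHG8* and *ZFAS1*, and took the rows of the count matrices that carry these symbols. Of the 8 genes, 5 had a row among 33694 genes (*MALAT1*, *NEAT1*, *SNHG25*, *SNHG8* and *ZFAS1*), and *GAS5*, *SNHG1* and *SNHG6* were not analysed here. The 5 genes were chosen from their levels in these same libraries, so their levels, their changes with treatment and their relation to mitochondrial RNA are given as a description.

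OVCA420 cells were left untreated (Ctrl) or were given TGF-β1 at 10 ng/mL for 1, 3 or 7 days (1-day, 3-day and 7-day), and each of the 4 conditions was profiled as 1 droplet library of single cells counted at transcript 3′ ends. TGF-β1 is a cytokine used to induce the epithelial-mesenchymal transition (EMT), in which epithelial cells take on mesenchymal features. All time points ended at the same collection, cells were passaged as needed and fresh TGF-β1 was supplied with the medium. The treated libraries came from 1 cell line and no sample of the series repeats a condition, so time point, culture and library cannot be told apart, and differences were described without tests.

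*MALAT1* and *NEAT1* are long noncoding RNAs that stay in the nucleus. *MALAT1* collects in nuclear speckles, bodies rich in splicing factors, and the long form of *NEAT1* is the scaffold of paraspeckles. Counts are per gene and do not separate the long form of *NEAT1* from shorter ones. *SNHG25*, *SNHG8* and *ZFAS1* are spliced RNAs whose introns or exons hold snoRNAs, which guide the methylation (box C/D class) or pseudouridylation (box H/ACA class) of ribosomal and other RNAs. Many such host transcripts reach the cytoplasm, and many are degraded by nonsense-mediated decay and begin with the terminal oligopyrimidine (TOP) tract known from ribosomal protein mRNAs.

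The named snoRNAs lying in the 3 host genes are shown because they define this group and show that the hosts carry both classes. An unnamed box H/ACA annotation in the *SNHG25* exon (ENSG00000281311, chr17:64146337-64146471) spans SNORA50C and is not shown. Their sequences were read from GRCh38 at the GENCODE release 44 positions, 5′ to 3′ on the plus strand. In the box C/D members the capitals mark the first C box (TGATGA, searched in the first 20 bases) and the last D box (CTGA, searched in the last 20 bases), and in the box H/ACA members they mark the ACA box, searched in the last 8 bases. Only the snoRNA strand was searched.
SNORD104 (*SNHG25* intron, chr17:64146083-64146152): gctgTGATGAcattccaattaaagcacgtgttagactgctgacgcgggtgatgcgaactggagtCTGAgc
SNORA50C (*SNHG25* exon, chr17:64146339-64146471): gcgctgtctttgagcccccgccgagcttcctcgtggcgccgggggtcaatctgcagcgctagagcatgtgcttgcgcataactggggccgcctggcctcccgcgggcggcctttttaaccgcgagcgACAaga
SNORA24 (*SNHG8*, chr4:118279190-118279320): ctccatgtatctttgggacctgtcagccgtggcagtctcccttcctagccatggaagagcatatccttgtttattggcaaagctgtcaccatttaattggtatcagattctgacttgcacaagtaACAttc
SNORD12C (*ZFAS1* intron, chr20:49278940-49279028): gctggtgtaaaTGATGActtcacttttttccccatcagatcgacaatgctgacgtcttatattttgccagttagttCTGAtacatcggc
SNORD12B (*ZFAS1* intron, chr20:49280319-49280409): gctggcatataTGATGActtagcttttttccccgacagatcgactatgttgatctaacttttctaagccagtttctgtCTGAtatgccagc
SNORD12 (*ZFAS1*, chr20:49280683-49280772): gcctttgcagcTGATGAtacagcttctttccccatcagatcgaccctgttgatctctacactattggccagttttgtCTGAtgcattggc
Both C/D motifs lay in these windows in 50.2% of the 221 annotated snoRNAs within 10 bases of the length of SNORD104, and the ACA motif in 72.6% of the 347 snoRNAs of like length to SNORA24. The snoRNAs themselves carry no poly(A) tail and were not measured here.

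The libraries were primed on adenosine tracts. The longest run of A in the longest annotated form of each nuclear RNA is therefore shown in capitals (GENCODE release 44, GRCh38, plus strand). The 20 bases on either side are given with it.
MALAT1 (chr11:65506078-65506130): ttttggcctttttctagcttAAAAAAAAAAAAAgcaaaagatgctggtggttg
NEAT1 (chr11:65440823-65440884): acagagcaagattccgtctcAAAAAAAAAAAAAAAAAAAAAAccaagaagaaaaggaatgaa
The *MALAT1* run was 13 bases long, with 1963 bases of the annotated form after it. A separately annotated small RNA on the same strand (ENSG00000274072, chr11:65506117-65506173) starts within the 20 bases shown after this run. The 1963 bases therefore need not belong to the mature *MALAT1* RNA, and its 3′ end was not read here. The *NEAT1* run was 22 bases long, with 4676 bases after it, so it is internal and not at the 3′ end. Runs of 8 or more A numbered 2 in *MALAT1* and 6 in *NEAT1*. The mature 3′ ends of *MALAT1* and of the long form of *NEAT1* are known to be made by cleavage after an A-rich tract of the transcript, without an added poly(A) tail. Which molecules were captured at which tract was not tested, and levels are therefore compared between libraries and never between genes.

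The promoter windows from 30 bases before to 20 bases from the start site are shown for the 2 hosts that matched the RefSeq promoter table (GRCh38.p14), with CTTTC, the opening of a TOP tract, in capitals.
SNHG8 (chr4:118278732-118278781, plus strand): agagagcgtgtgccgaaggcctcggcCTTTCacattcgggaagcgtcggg
ZFAS1 (chr20:49278612-49278661, plus strand): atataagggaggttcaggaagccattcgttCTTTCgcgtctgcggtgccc
The motif began at the annotated start site (position 1) of *ZFAS1* and 4 bases upstream of that of *SNHG8*. Among 35116 RefSeq promoters, 6.85% held CTTTC on the transcribed strand of this window and 12.1% on either strand. The windows of *MALAT1* held none, *NEAT1* and *SNHG25* had no match in the table, and a match is a description of the letters only.

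All 5 genes are annotated as lncRNA. *NEAT1* (ENSG00000245532) and *MALAT1* (ENSG00000251562) are neighbors on chromosome 11, at 65422774 to 65445540 and 65497640 to 65508073. *SNHG25* (ENSG00000266402) lies on chromosome 17 at 64145937 to 64146476, *SNHG8* (ENSG00000269893) on chromosome 4 at 118278703 to 118285316 and *ZFAS1* (ENSG00000177410) on chromosome 20 at 49278178 to 49299600, all on the plus strand. Genes on the opposite strand overlap *MALAT1* (*TALAM1*), *SNHG8* (*PRSS12*) and *ZFAS1* (*ZNFX1*). Strand-specific counting is not stated in the sources used here, so reads of these pairs may not be fully separated.

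Of 10710 listed barcodes, the first 3170 in barcode order were analysed, and 3144 with more than 200 genes and at most 20% mitochondrial UMIs (unique molecular identifiers, the counted molecules) were retained, with 933 cells in Ctrl and 937, 705 and 569 cells after 1, 3 and 7 days. Totals over these cells are not the full depth of a library. Median UMIs per retained cell ranged from 30270 in Ctrl to 43553 at 3-day, and 23 barcodes, covering 46 of the cells read, occurred in more than 1 library. The 6 epithelial or ovarian cancer markers (*KRT19*, *ELF3*, *EPCAM*, *KRT8*, *KRT18* and *MUC16*) summed to 3172 to 4588 CPM (UMI counts scaled to the same total in every library), whereas the fibroblast, endothelial and leukocyte lists summed to 0.12 to 7.92 CPM. The median mitochondrial share of a cell was 8.31% in Ctrl and 7.42%, 6.22% and 6.26% after 1, 3 and 7 days, and the share of cells scored as G1 was 27.2%, 74.8%, 49.2% and 39.2%. Both shift between the same libraries as the genes described here, and their part in the levels was examined only through the values within bins, classes and G1 cells given below.

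All 5 genes were lower at 1-day than in Ctrl, and they then followed different courses. *MALAT1* and *NEAT1* remained below Ctrl to 7-day, *SNHG25* fell at each step, and *SNHG8* and *ZFAS1* climbed back to values near or above Ctrl. A level is the pooled CPM over all retained cells of 1 library and carries an exact 95% Poisson interval. Each log2 ratio has an exact conditional interval. All intervals cover counting error only and say nothing of the spread between cultures.

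**Figure D1:**
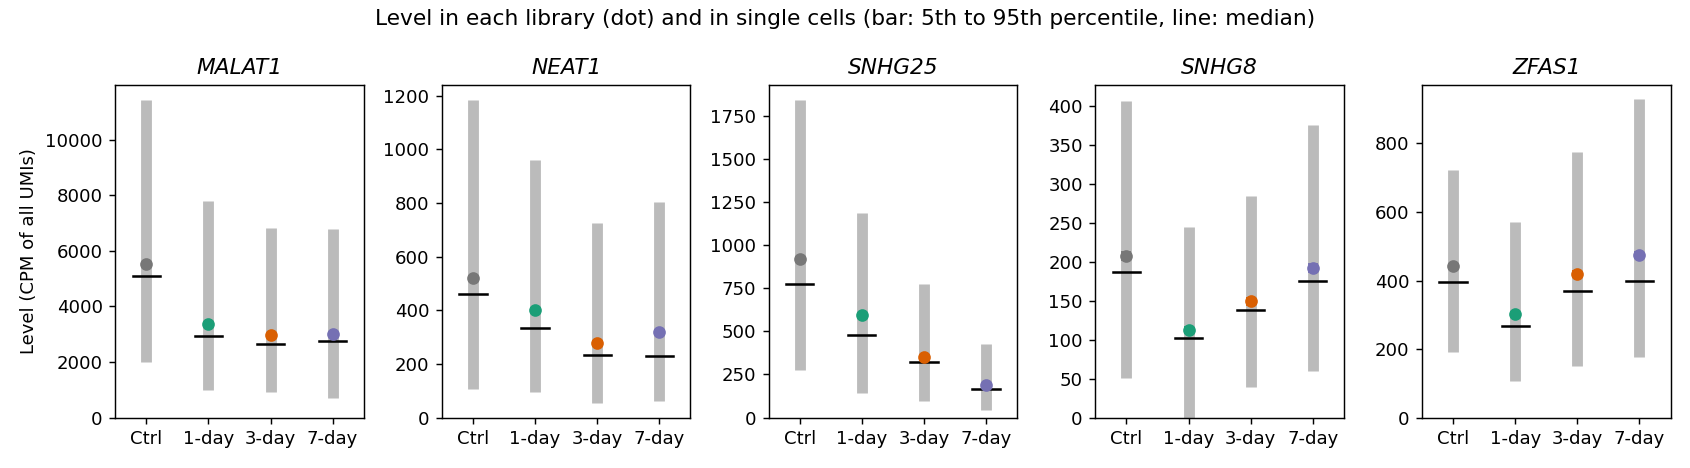
Level of the 5 genes in each library in CPM of all UMIs (dots; 95% Poisson intervals are mostly smaller than the dot), with the 5th to 95th percentile (grey bars) and median (black lines) of single cells; each panel has its own axis from 0. *SNHG25* declined from 918 to 188 CPM, while *SNHG8* and *ZFAS1* were lowest at 1-day and then rose.

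*MALAT1* measured 5520 CPM in Ctrl and 3376, 2959 and 3009 CPM after 1, 3 and 7 days. Most of the difference was present by 1-day, with a log2 ratio to Ctrl of -0.71 (interval -0.72 to -0.70), and the ratio was -0.90 at 3-day and -0.88 at 7-day. The step from 3-day to 7-day was 0.02. The median cell held 149 *MALAT1* UMIs in Ctrl and 99 to 115 in the treated libraries. Single cells overlapped between libraries, with a 5th to 95th percentile of 2002 to 11431 CPM in Ctrl and 694 to 6790 CPM at 7-day.

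*NEAT1* measured 521 CPM in Ctrl and 400, 279 and 319 CPM after 1, 3 and 7 days. Its decline was spread over the first 2 steps, with log2 ratios to Ctrl of -0.38 (interval -0.41 to -0.35) at 1-day and -0.90 (interval -0.94 to -0.87) at 3-day. The 7-day ratio was -0.71, so the pooled level was 1.15-fold higher at 7-day than at 3-day. That return was smaller without the richest cells. The 10 cells richest in *NEAT1* held 16.3% of its 7-day UMIs against 6.00% to 8.28% in the other libraries, and without the top 10 cells of each library the 3-day and 7-day levels were 260 and 273 CPM. The median cell level was 234 CPM at 3-day and 231 CPM at 7-day.

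*SNHG25*, the host of SNORD104 and SNORA50C, measured 918 CPM in Ctrl and 593, 349 and 188 CPM after 1, 3 and 7 days. It declined at each step and was 4.88-fold lower at 7-day than in Ctrl (log2 ratio -2.29, interval -2.33 to -2.24). The steps were -0.63, -0.76 and -0.89 on the log2 scale. At the last step only 0.969% of the 8048 genes counted had a lower ratio. The median cell followed, with 771, 482, 321 and 169 CPM, and the 95th percentile of 7-day cells (428 CPM) lay below the 25th percentile of Ctrl cells (544 CPM).

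*SNHG8*, the host of SNORA24, measured 207 CPM in Ctrl and 113, 149 and 192 CPM after 1, 3 and 7 days. Its 1-day log2 ratio of -0.88 (interval -0.94 to -0.82) was the lowest of the 5 genes at that time, and the ratio then rose to -0.47 at 3-day and -0.11 at 7-day. *ZFAS1*, the host of the SNORD12 family, measured 441 CPM in Ctrl and 301, 420 and 474 CPM after 1, 3 and 7 days. The *ZFAS1* log2 ratios to Ctrl were -0.55 (interval -0.59 to -0.51), -0.07 and 0.10, so it ended above Ctrl, close to the median of all genes (0.11). The steps from 1-day to 3-day were 0.41 for *SNHG8* and 0.48 for *ZFAS1*.

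**Figure D2:**
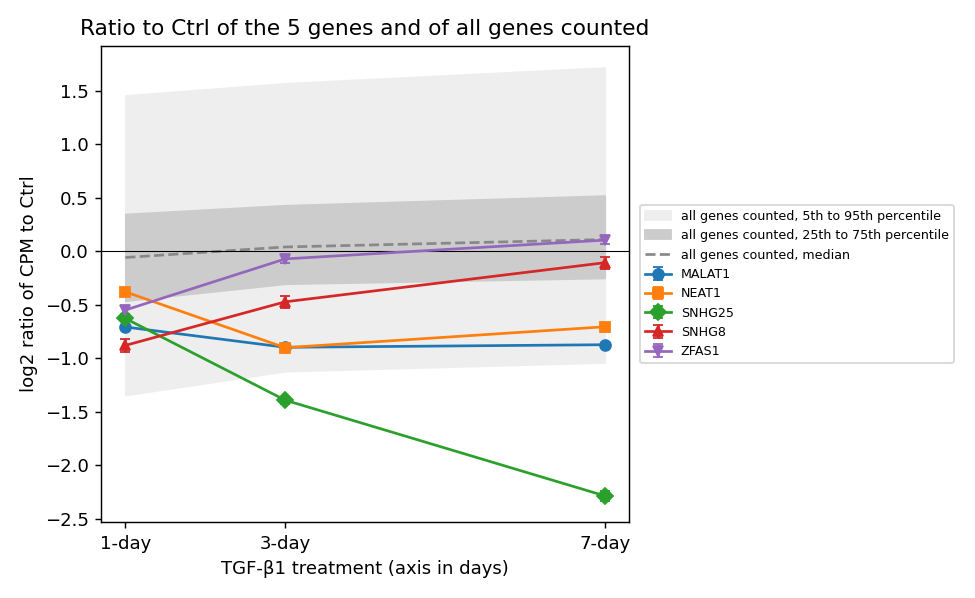
log2 ratio of CPM to Ctrl at 1-day, 3-day and 7-day for the 5 genes (points with 95% counting intervals) over the distribution of all genes counted (bands and dashed median). *SNHG25* lies below the 5th percentile of genes at 3-day and 7-day, while *ZFAS1* reaches the median at 7-day.

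Past a 1.5-fold difference, 3 of the 5 genes were lower at 1-day (*MALAT1*, *SNHG25* and *SNHG8*), against 19.8% of the 8123 genes that reached 10 CPM in Ctrl or the treated library. At 3-day and at 7-day the 3 were *MALAT1*, *NEAT1* and *SNHG25*, against 13.1% and 11.1% of genes. None of the 5 was higher past 1.5-fold at 1-day, 3-day or 7-day, against 16.8%, 18.9% and 22.1% of genes. Between consecutive time points *SNHG25* alone was lower past 1.5-fold, against 6.42% of genes lower from 1-day to 3-day and 2.55% from 3-day to 7-day. The 3 ratios to Ctrl share the Ctrl library, and the median log2 ratio of all genes was -0.06, 0.04 and 0.11. In G1 cells alone the 1-day ratio of *MALAT1* was -0.56 and the 7-day ratio of *NEAT1* was -0.54, both short of 1.5-fold, that of *ZFAS1* at 1-day was -0.65, past it, and that of *SNHG25* at 7-day was -2.58. The 1-day ratio of *SNHG25* fell short of 1.5-fold with median-of-ratios scaling (-0.55) and in the first part of the barcode order (-0.47).

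A UMI of *MALAT1* was found in 99.6% to 100% of cells of a library, of *NEAT1* in 98.8% to 99.4%, of *SNHG25* in 98.6% to 99.9% and of *ZFAS1* in 99.4% to 100%. For *SNHG8* the share was 97.9% in Ctrl and 93.1%, 98.2% and 99.5% in the treated libraries in time order. Cells were then thinned to 18000 UMIs, and cells below that depth were left out. This left 844 cells in Ctrl and 900, 677 and 549 cells after 1, 3 and 7 days. In these deeper cells the *SNHG8* shares were 95.3%, 84.0% (exact binomial interval 81.4% to 86.3%), 92.6% and 94.2%, so the 1-day dip remained at equal depth. At that depth *NEAT1* was found in 98.7%, 97.6%, 93.6% and 95.8% of cells in time order and *SNHG25* in 99.9%, 99.6%, 97.9% and 94.0%. No cell type known to lack these RNAs was present to show the share that free RNA alone would give.

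The spread between cells is given as the variance over the mean, a measure that grows with the mean count and so does not rank genes of different level. In cells thinned to 18000 UMIs the variance over the mean of *MALAT1* counts was 19.5 to 26.8, against a median of 1.22 to 1.27 over all genes of at least 50 CPM. *SNHG8* was close to that median at 1.35 to 1.51. For *SNHG25* it was 15.4 in Ctrl and 11.9, 2.99 and 1.87 after 1, 3 and 7 days, while its mean count in the thinned cells fell from 16.3 to 10.4, 6.45 and 3.39 UMIs. Single cells weighed on these values. One 1-day cell held 813 *SNHG25* UMIs of 65756, and the next highest held 401. One Ctrl cell held 524 *SNHG25* UMIs of 27629. One 7-day cell held 396 *NEAT1* UMIs of 38962, against 180 in the next. None of these 3 cells was marked as a doublet. Without the top 10 cells of each library *SNHG25* still measured 857, 531, 335 and 179 CPM.

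The mitochondrial share of a cell is the percentage of its UMIs on the 13 mitochondrially encoded mRNAs, and a high share is widely used to filter out damaged cells. To keep this share from lowering other genes by construction, levels in this comparison are CPM of nonmitochondrial UMIs. Correlations are Spearman's rho over the 569 to 937 retained cells of 1 library, which share their library and its depth, and they are descriptive.

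*NEAT1* had a positive rho with the mitochondrial share in each library, and its level rose across all bins only in Ctrl and at 1-day. Its rho was 0.23 in Ctrl and 0.23, 0.10 and 0.14 after 1, 3 and 7 days, which was higher than that of 99.7%, 99.2%, 80.2% and 93.0% of genes of at least 50 CPM. In 4 equal bins of the Ctrl cells ordered by mitochondrial share, *NEAT1* measured 457, 526, 617 and 679 CPM. At 1-day the bins gave 382, 400, 423 and 536 CPM, a rise mostly in the last bin. At 3-day they gave 288, 267, 295 and 342 CPM. At 7-day they gave 414, 296, 283 and 378 CPM, and the lowest bin there contained the cell with 396 *NEAT1* UMIs (3.38% mitochondrial). The bins of each library cover their own range of mitochondrial share, so bins of the same number are not matched between libraries.

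The rho of *MALAT1* was -0.01 in Ctrl and 0.12, 0.04 and 0.03 after 1, 3 and 7 days. Its Ctrl bins measured 6039, 6288, 5700 and 6074 CPM, and its 1-day bins 3347, 3725, 3703 and 3863 CPM. The *MALAT1* bins measured 3251, 2958, 3175 and 3256 CPM at 3-day and 3489, 3171, 3072 and 3132 CPM at 7-day. At 7-day the level was thus highest in the bin of lowest mitochondrial share, unlike at 1-day. The Pearson r of log-normalized levels was larger than rho in the treated libraries, at 0.01 in Ctrl and 0.30, 0.26 and 0.22 after 1, 3 and 7 days, against 0.26, 0.26, 0.17 and 0.23 for *NEAT1*. Without the barcodes under 2% mitochondrial described below, an alternative added after the data were seen, it was 0.01, 0.13, 0.05 and 0.07 for *MALAT1* and 0.26, 0.23, 0.12 and 0.17 for *NEAT1*.

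Among the hosts, *SNHG25* had rho values of 0.17, 0.23, 0.12 and 0.08 in time order, and *SNHG8* had 0.13, 0.05, 0.04 and 0.06. *ZFAS1* leaned the other way in 3 libraries, with -0.06 in Ctrl and 0.07, -0.11 and -0.12 after 1, 3 and 7 days. In 7-day cells *ZFAS1* fell from 588 CPM in the lowest bin to 461 CPM in the third and 483 CPM in the highest. The rho of *SNHG25* was higher than that of 98.0%, 99.0%, 85.3% and 76.0% of genes. The central 95% of genes had rho from -0.21 to 0.17 in Ctrl, -0.19 to 0.20 at 1-day, -0.21 to 0.20 at 3-day and -0.18 to 0.18 at 7-day.

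**Figure D3:**
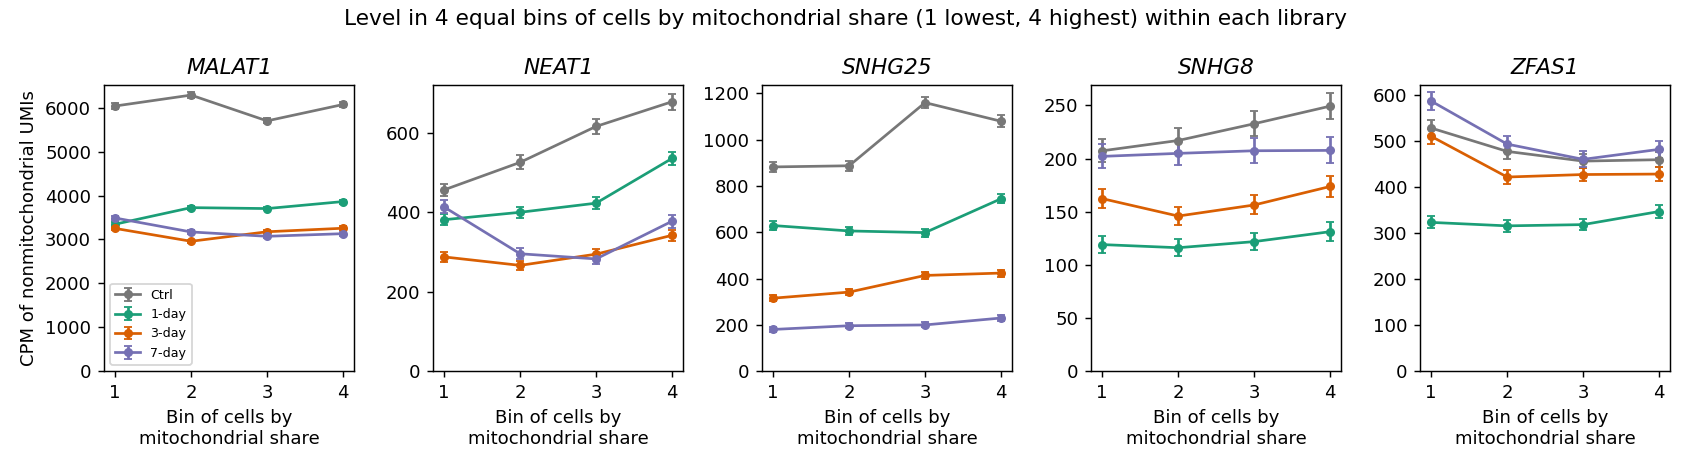
Level of each gene in CPM of nonmitochondrial UMIs (95% Poisson intervals) in 4 equal bins of the retained cells of each library ordered by mitochondrial share, 1 lowest and 4 highest. *NEAT1* climbed from 457 to 679 CPM across the Ctrl bins, whereas *MALAT1* stayed between 5700 and 6288 CPM.

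The largest differences lay at the ends of the mitochondrial range, outside or at the edge of the retained cells. Barcodes over 20% mitochondrial (26 in all, at 8, 8, 7 and 3 per library) and barcodes under 2% (39 in all, with 0 in Ctrl and 12, 13 and 14 in the treated libraries) were set against the middle class between them. These limits were chosen after the values had been seen, and they cut a continuous range. Between 15% and 25% there were 10, 20, 7 and 4 barcodes, and between 1% and 3% there were 0, 3, 6 and 11. Over 20%, median UMIs per barcode were 9603 to 14271, against 30270 to 43912 in the middle class.

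In barcodes over 20% mitochondrial both nuclear RNAs took a larger share of the nonmitochondrial UMIs. *MALAT1* measured 13466 CPM in Ctrl and 10652, 8602 and 21376 CPM after 1, 3 and 7 days, which gave log2 ratios to the middle class of 1.16, 1.53, 1.43 and 2.72. *NEAT1* measured 2546, 2575, 1755 and 2387 CPM, with log2 ratios of 2.16, 2.57, 2.55 and 2.80. *MALAT1* was above the middle median of its own library in 25 of the 26 barcodes and *NEAT1* in 24 of 26. In counts per barcode the *MALAT1* medians were lower, at 121.5, 61, 66 and 104 UMIs, against 149, 100, 116 and 115 in the middle class. The *NEAT1* medians were higher, at 18, 19, 22 and 14 UMIs, against 13, 11, 10 and 10. At 7-day 1 of the 3 barcodes held 247 of the 394 *MALAT1* UMIs, and without it the log2 ratio was 1.72. Among the 2574 to 2868 genes compared, *NEAT1* ranked 70th, 19th, 8th and 20th from the top in time order and *MALAT1* 366th, 261st, 269th and 26th.

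In the same barcodes *ZFAS1* was above its library's middle median in 4 of 26 barcodes, and *SNHG25* and *SNHG8* in 7 of 26 each. The log2 ratios in time order were -0.89, -1.47, -0.89 and -1.22 for *ZFAS1*, -1.53, -0.92, -0.17 and 0.11 for *SNHG25* and -1.97, -0.27, -0.78 and 0.08 for *SNHG8*. Past 1.5-fold, *MALAT1* and *NEAT1* were higher in all 4 libraries, against 27%, 31.5%, 28.3% and 31.9% of genes. Lower past 1.5-fold were 3, 2, 2 and 1 of the 5 genes in time order, against 31.8%, 37.5%, 34.7% and 40.3% of genes. The counts behind the hosts are small, at 4 to 25 UMIs per library, and *SNHG8* had 3 or fewer UMIs in all 26 barcodes. With limits of 3% and 15% the ratios were 0.66 to 2.19 for *MALAT1* and 1.44 to 2.60 for *NEAT1*, but those of *SNHG25* at 1-day (0.82), *SNHG8* at 1-day (0.33) and 3-day (0.22) and *ZFAS1* in Ctrl (0.026) and at 1-day (0.044) lay above 0. Without the barcode richest in the gene these host ratios were 0.27, -0.35, -0.06, -1.01 and -0.35 in the same order.

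Other gene lists moved in the same barcodes. Of 87 TOP mRNAs, mainly ribosomal protein mRNAs, 67 in Ctrl and 79, 78 and 80 after 1, 3 and 7 days were lower past 1.5-fold. The shares over all genes were 31.8%, 37.5%, 34.7% and 40.3%. Speckle and SR proteins, the splicing factors of the bodies where *MALAT1* collects, had a median log2 ratio of 0.28, 0.39, 0.69 and 1.18, with 5 of 15, 6 of 13, 8 of 15 and 9 of 15 mRNAs higher past 1.5-fold. The median of all genes was -0.06 to -0.23, and 27%, 31.5%, 28.3% and 31.9% of them were higher past 1.5-fold. Against those same shares, 2 of 15, 5 of 15, 4 of 15 and 5 of 14 mRNAs of paraspeckle proteins were higher. Of the other long noncoding snoRNA hosts, 3 of 5, 3 of 4, 3 of 4 and 1 of 4 were lower past 1.5-fold, and 1, 0, 0 and 1 higher.

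In barcodes under 2% mitochondrial both nuclear RNAs took a smaller share of the nonmitochondrial UMIs, with *MALAT1* further from the middle class than *NEAT1*. *MALAT1* was below its library's middle median in 38 of the 39 barcodes, and 29 of the 39 held 3 or fewer *MALAT1* UMIs although their median total was 16189 to 21503 UMIs. Its level was 81.4, 838 and 611 CPM after 1, 3 and 7 days, with log2 ratios of -5.50, -1.92 and -2.41. These ratios ranked 1st of 2577 genes from the lowest at 1-day, 104th of 2767 at 3-day and 58th of 2868 at 7-day. At 3-day a single barcode held 208 of the 244 *MALAT1* UMIs of the class, and without it the ratio was -4.58. *NEAT1* was below the middle median in 34 of 39 barcodes, with log2 ratios of -1.31, -0.95 and -1.08. Without the barcode richest in *NEAT1* in each library these were -1.47, -1.81 and -1.71. The *NEAT1* ratios ranked only 209th, 489th and 425th from the lowest among the same genes. With limits of 3% and 15% the *MALAT1* ratios were -2.75, -0.94 and -1.10, and the 7-day ratio of *NEAT1* was 1.17, with 180 of 284 UMIs in 1 barcode.

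*SNHG25* was above the middle median in 28 of these 39 barcodes, with log2 ratios of 0.77 at 1-day, 0.79 at 3-day and 0.34 at 7-day, the last with an interval of -0.07 to 0.73. *ZFAS1* was above in 18 and *SNHG8* in 12 of 39. The *SNHG8* log2 ratios were 0.08, 0.22 and -0.08 after 1, 3 and 7 days, and -0.17, -0.34 and -0.23 without its richest barcode. Of the 39 barcodes, 24 held 3 or fewer *SNHG8* UMIs. The *ZFAS1* ratio of 1.41 at 3-day rested on 1 barcode with 228 of the 342 UMIs, the same barcode that held 208 *MALAT1* UMIs. Without it the *ZFAS1* ratio was -0.06. Past 1.5-fold lower were *MALAT1* and *NEAT1* in the 3 treated libraries, against 26.4%, 31.6% and 32.8% of genes. Past 1.5-fold higher were *SNHG25* at 1-day, *SNHG25* and *ZFAS1* at 3-day and none at 7-day, against 7.88%, 6.65% and 8.75% of genes. In Ctrl 0 of 941 barcodes were under 2% (exact binomial upper limit 0.391%, where 3 barcodes would be 0.319%). In the treated libraries 1.27%, 1.83% and 2.45% of the barcodes read were under 2%. The limit covers counting error within 1 library only. Leaving these 39 barcodes out moved no count of genes past 1.5-fold. What these barcodes are was not tested.

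**Figure D4:**
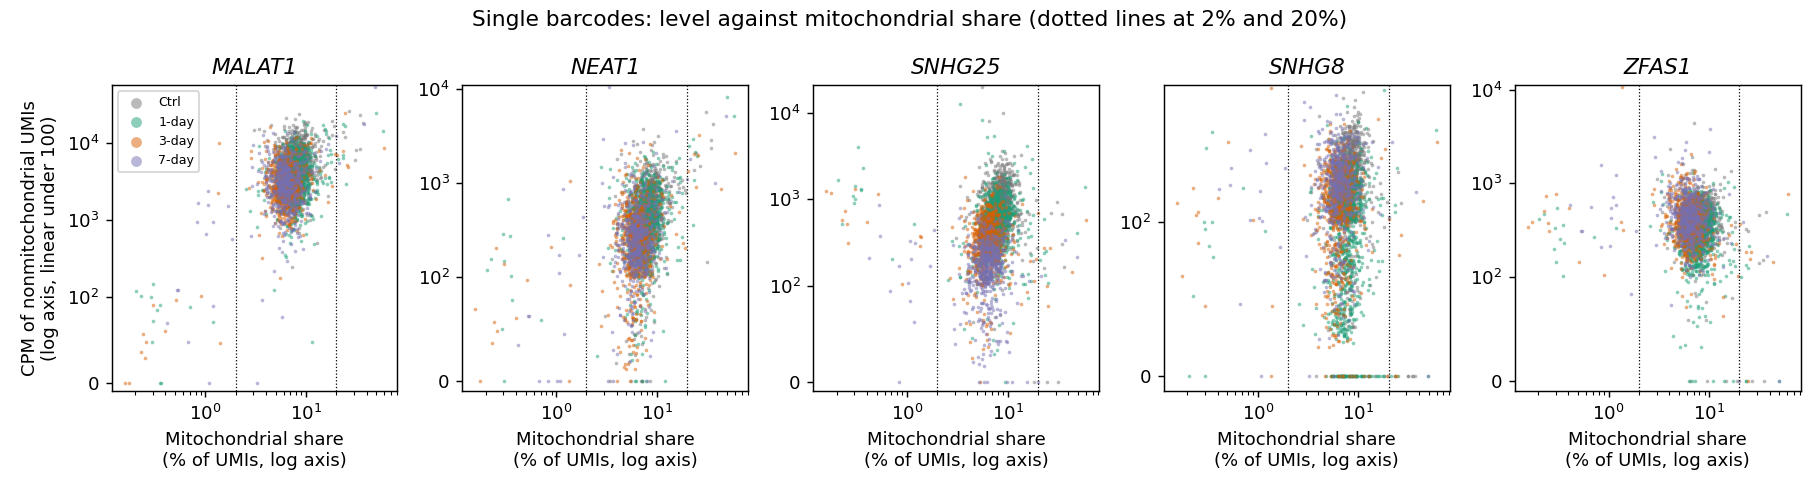
Each of the 3170 barcodes read by mitochondrial share (log axis, % of UMIs) and level of the 5 genes (CPM of nonmitochondrial UMIs, log axis that is linear under 100 CPM), coloured by library, with dotted lines at 2% and 20%. Barcodes under 2% fall to the lower left for *MALAT1*, and those over 20% lie to the upper right for *MALAT1* and *NEAT1*.

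Of 18 other long noncoding snoRNA hosts listed, 9 had a row and 8 were counted at 1-day, of which 5 were lower and 0 higher past 1.5-fold, against 19.8% and 16.8% of all genes (median log2 ratio -0.70, against -0.06 for all genes). *SNHG18* had a 1-day log2 ratio of 0.37, short of 1.5-fold. *SNHG15* measured 112 CPM in Ctrl and 51.2, 98.8 and 121 CPM after 1, 3 and 7 days, a dip and return like those of *SNHG8* and *ZFAS1*. *SNHG19* measured 56.2, 32.3, 22.2 and 26.4 CPM, and *SNHG9* measured 131, 78.7, 83.1 and 79.6 CPM, so both stayed low. *C6orf48* measured 73.5, 55.3, 73.7 and 82.1 CPM. At 3-day 3 of 8 hosts were lower past 1.5-fold, against 13.1% of all genes, and at 7-day 4 of 9 were lower and 1 higher, against 11.1% and 22.1%. The higher host, *SNHG12*, measured 6.97 CPM in Ctrl and 10.7 CPM at 7-day (log2 ratio 0.62). It reached 10 CPM only at 7-day, so it was counted only because it was high there. *SNHG10*, among the lower hosts, measured 18.5, 10.3, 8.37 and 7.68 CPM in time order. At 3-day and 7-day *SNHG10* was counted only because it was high in Ctrl. *SNHG12* and *SNHG10* were named after their values were seen.

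Of 20 protein-coding snoRNA hosts counted, 5 were lower and 1 higher past 1.5-fold at 1-day, against 19.8% and 16.8% of all genes. At 7-day 0 were lower and 1 higher, against 11.1% and 22.1%, and the medians were -0.34 and -0.07. *NCL*, which encodes nucleolin, measured 451, 265, 349 and 330 CPM. *TPT1*, also a TOP mRNA, measured 1714, 2998, 2819 and 2820 CPM, the 1 host that was higher. *EIF4A1*, a translation initiation helicase, measured 76.2, 64.8, 92.4 and 99.8 CPM.

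Of 12 mRNAs of proteins that assemble with snoRNAs 4 were lower past 1.5-fold at 1-day, 1 at 3-day and 0 at 7-day, against 19.8%, 13.1% and 11.1% of all genes. The summed level of the list was 1862, 1325, 1690 and 1683 CPM. *DKC1*, the pseudouridine synthase of box H/ACA particles and itself a snoRNA host, measured 189 CPM in Ctrl and 93.1, 153 and 136 CPM after 1, 3 and 7 days. *RUVBL1*, an assembly helicase, measured 75.1, 60.8, 64.5 and 56.3 CPM. *NOP10* and *SNU13*, core proteins of the H/ACA and C/D particles, measured 279, 308, 356 and 339 CPM and 311, 248, 346 and 325 CPM.

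TOP mRNAs as a group stayed near their Ctrl level. Of 87, 1, 2 and 1 were lower past 1.5-fold at 1-day, 3-day and 7-day, against 19.8%, 13.1% and 11.1% of all genes. Higher past 1.5-fold were 2, 2 and 2, against 16.8%, 18.9% and 22.1%. The median log2 ratio was 0.03, -0.00 and -0.02. *PABPC1*, the poly(A)-binding protein, measured 1763, 926, 1029 and 763 CPM. *NAP1L1*, a histone chaperone, measured 361, 563, 812 and 627 CPM. The ribosomal protein mRNA *RPS2*, which has many near-identical pseudogene copies, measured 15514, 11669, 9559 and 10616 CPM.

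Among 12 decay factors, the machinery that removes many host transcripts, 1 was lower past 1.5-fold at each time point, *UPF3B*. The shares of all genes lower past 1.5-fold were 19.8%, 13.1% and 11.1%. *UPF3B* measured 55.4 CPM in Ctrl and 23.3, 32.0 and 35.8 CPM after 1, 3 and 7 days. *RBM8A*, part of the exon junction complex, measured 280, 229, 234 and 193 CPM. *UPF2* and *UPF3A* measured 54.9, 42.1, 44.03 and 52.0 CPM and 78.8, 58.1, 83.3 and 82.5 CPM.

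Of 19 paraspeckle protein mRNAs 1, 1 and 2 were lower past 1.5-fold in time order, against 19.8%, 13.1% and 11.1% of all genes, with medians of -0.15, -0.04 and -0.08. *HNRNPM* measured 345, 276, 227 and 198 CPM and *RBMX* 538, 311, 416 and 352 CPM, while the core paraspeckle protein mRNA *NONO* measured 82.5, 70.5, 84.7 and 94.0 CPM and *HNRNPUL1* 171, 130, 156 and 185 CPM. Of 17 speckle and SR protein mRNAs, 3 were lower past 1.5-fold at 1-day, against 19.8% of all genes, and 0 later. They were *TRA2B*, *PNN* and *SRSF2*, with log2 ratios of -0.83, -0.78 and -0.76. *SRSF2* was named after its values were seen. *TRA2B* measured 198, 111, 144 and 153 CPM, *PNN* measured 79.8, 46.6, 59.1 and 54.9 CPM, and the speckle scaffolds *SON* and *SRRM2* measured 131, 127, 156 and 155 CPM and 168, 144, 189 and 201 CPM.

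Of 12 other long noncoding RNAs 2, 3 and 2 were lower past 1.5-fold in time order, against 19.8%, 13.1% and 11.1% of all genes, and 3, 3 and 3 were higher, against 16.8%, 18.9% and 22.1%. *LINC00152* measured 84.9, 252, 280 and 246 CPM and *MIR4435-2HG* measured 171, 511, 514 and 394 CPM. These 2 genes are near-identical copies whose reads may be split between them, so neither value is certain. *GABPB1-AS1* measured 108, 64.6, 50.4 and 49.2 CPM and *LINC00511* 63.7, 77.8, 56.3 and 43.7 CPM. Some genes reached 10 CPM only in the group where they were high, and were counted for that reason. Among those higher this was *MIR22HG* (5.27, 27.7, 20.8 and 14.3 CPM). Among those lower it was *LUCAT1* at 3-day and 7-day (13.4, 11.7, 4.08 and 4.10 CPM) and *DLEU2* at 1-day (8.77 CPM, against 18.3 CPM in Ctrl). *MIR22HG*, *LUCAT1* and *DLEU2* were named after their values were seen.

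**Figure D5:**
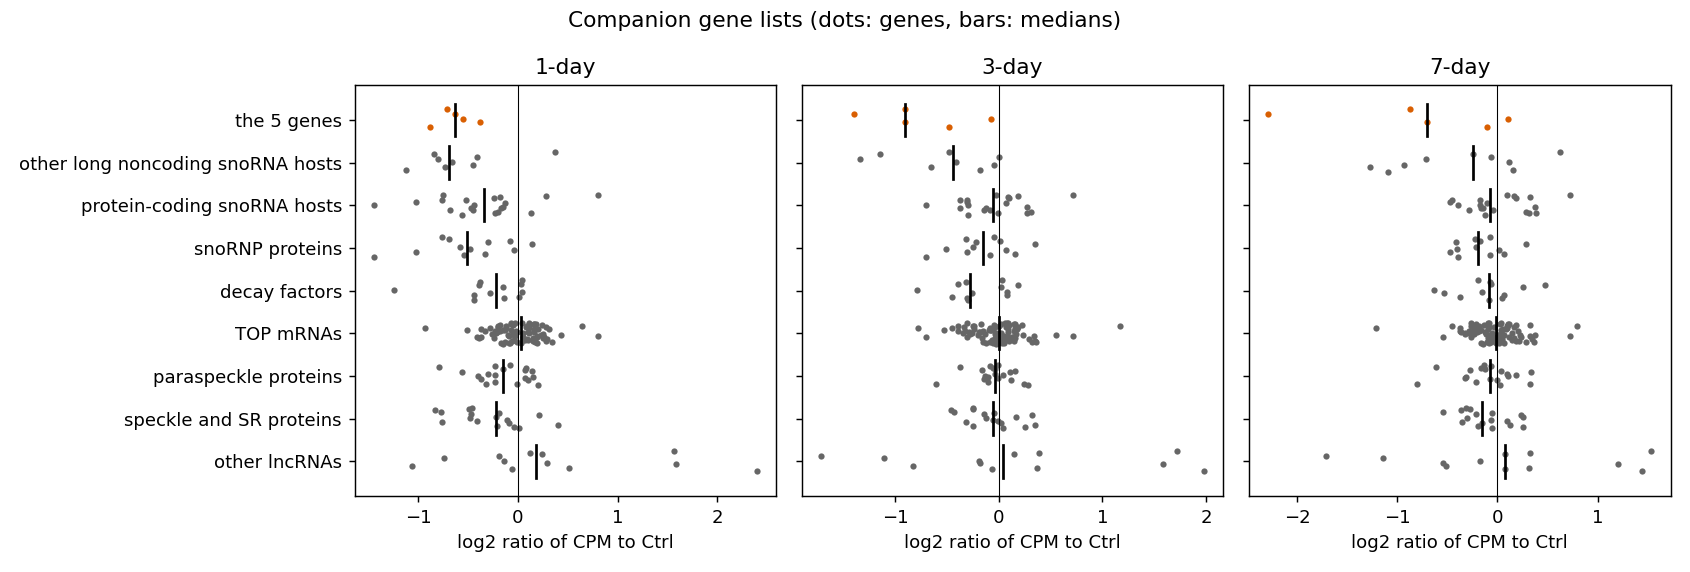
log2 ratio of CPM to Ctrl of the 5 genes and of the genes in 8 companion lists at each time point (dots), with list medians (bars). At 1-day the other long noncoding hosts had a median of -0.70 and the TOP mRNAs 0.03.

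The genes most like each member from cell to cell were found from the mean of the Pearson r of log-normalized, depth-thinned counts within the 4 libraries, over 2074 genes of at least 50 CPM in every library. All values are low and describe cells that share a library. *NEAT1* was closest to the mitochondrial mRNA *MT-CO1* (mean r = 0.26), to *SAT1*, which encodes a polyamine acetyltransferase (0.24), and to the laminin chain *LAMB3* (0.22). *MALAT1* was closest to *NCL* (0.21), *MT-ND1* (0.21) and *MT-ND6* (0.19), and the *MT-ND1* value was -0.03 in Ctrl and 0.26 to 0.33 in the treated libraries. The barcodes under 2% mitochondrial, low in *MALAT1* and found only in the treated libraries, were not removed for these values. Without any barcodes under 2%, the Pearson r of *MALAT1* with mitochondrial share over unthinned retained cells was smaller in each treated library, as given above. The *MT-ND1* value without them was not tested.

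*SNHG25* was closest to the host *SNHG9* (0.24), *C17orf89* (0.21) and *TMA7* (0.19). *SNHG8* was closest to *SNHG25* (0.17) and to the ribosomal protein mRNAs *RPS3A* (0.15) and *RPL34* (0.14). *ZFAS1* was closest to *RPL13A* (0.24), *TPT1* (0.24) and *RPL28* (0.23). *MALAT1* and *NEAT1* had a mean r of 0.18 with each other (0.07 in Ctrl and 0.29, 0.22 and 0.11 after 1, 3 and 7 days), while *MALAT1* and *SNHG25* had -0.08. Both nuclear RNAs were low in the barcodes under 2% mitochondrial, which Ctrl lacked, and their r without these barcodes was not tested.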

How the data were processed

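The authors deposited UMI counts per gene and cell, made per the submitters' processing notes with Cell Ranger 2.0.1 on GRCh38, without normalization. Here cells were read in barcode order (3170 of 10710 barcodes, the others not analysed here), and cells with more than 200 genes and at most 20% mitochondrial UMIs were retained. Each group was 1 library, so levels are CPM of summed UMIs with 95% exact Poisson intervals, ratios have exact conditional intervals and shares exact binomial intervals. Doublets were called with Scrublet in scanpy 1.11.5 (40 cells marked, 1.27%, retained except in an alternative). Phases of the cell cycle were scored within each library with lists from Seurat 5.3.0. Counts past 1.5-fold cover genes that reached 10 CPM in at least 1 of the libraries compared. Python 3.11.15 and scipy 1.17.1 were used, and the steps were tested on simulated data.

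The members and all lists were chosen with earlier results of these data known. Named genes were the members, the 2 highest and 2 lowest 7-day ratios of each list among genes of at least 50 CPM, and the 3 genes most like each member. The alternatives were other denominators and scaling, other mitochondrial limits, doublets or shared barcodes left out, means over cells, thinning, G1 cells only and the first and the last part of the barcode order.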

Additional observations from a re-analysis of the deposited data

Results flagged for a closer look

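*ZFAS1* had ratios of opposite sign at different time points, its log2 ratio to Ctrl being -0.55 (1-day), -0.073 (3-day) and 0.10 (7-day). This difference was not tested, since each time point had 1 library. The median of all genes was -0.06, 0.04 and 0.11, so the 7-day value of *ZFAS1* was close to that of genes in general.

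In barcodes removed by the mitochondrial limit both nuclear RNAs took a larger share of the nonmitochondrial UMIs than in the middle class. The median count per barcode was lower for *MALAT1* and higher for *NEAT1*. These barcodes enter the ratios to Ctrl only in the alternative without that limit. In barcodes over 20% mitochondrial the log2 ratio of *MALAT1* to the middle class was 1.16 in Ctrl and 1.53, 1.43 and 2.72 after 1, 3 and 7 days. That of *NEAT1* was 2.16, 2.57, 2.55 and 2.80. These ratios rest on 3 to 8 barcodes per library, and without 1 of the 3 at 7-day that of *MALAT1* was 1.72.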

How the results depend on the processing

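No paired analysis was possible because the conditions have 1 library each and no result came from a test. No log2 ratio of the 5 genes to Ctrl changed sign in 195 alternative values, although 70 moved beyond their counting interval. Across alternatives the 1-day ratio ranged from -0.80 to -0.56 for *MALAT1*, -0.58 to -0.30 for *NEAT1*, -0.79 to -0.47 for *SNHG25*, -0.92 to -0.80 for *SNHG8* and -0.65 to -0.47 for *ZFAS1*. The 7-day ratio ranged from -0.94 to -0.81, -0.80 to -0.54, -2.58 to -2.24, -0.18 to -0.09 and 0.03 to 0.32. The number of genes lower past 1.5-fold was 2 to 4 at 1-day, 3 at 3-day and 2 or 3 at 7-day. Of 200 alternative correlations with mitochondrial share 7 moved by over 0.1. As a Pearson r that of *MALAT1* became 0.30, 0.26 and 0.22 after 1, 3 and 7 days, but 0.13, 0.05 and 0.07 with barcodes under 2% mitochondrial also left out. The Pearson r of *SNHG25* was 0.13 at 1-day and 0.0046 at 3-day. The others were *MALAT1* at 7-day in cells thinned to 18000 UMIs (-0.08) and the Pearson r of *ZFAS1* at 3-day without those barcodes (-0.22). Class limits of 3% and 15% in place of 2% and 20%, added after the data were seen, turned the sign of 5 class ratios that were past 1.5-fold. *NEAT1* under the lower limit became 1.17 at 7-day, where 1 barcode held 180 of 284 UMIs. Over the upper limit *SNHG25* became 0.82 at 1-day, *SNHG8* 0.22 at 3-day, and *ZFAS1* 0.026 in Ctrl and 0.044 at 1-day. Without the barcode richest in the gene these were 0.27, -0.06, -1.01 and -0.35 in the same order, and the cause was not tested. Depth limits *SNHG8*, with a median of 3 to 7 UMIs per cell.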
